A study of Drosophila melanogaster with 2 samples.

Results

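The genes mbl, heph and sm encode RNA-binding proteins that regulate splicing, and each lies in a long locus that carries many H3K27ac peaks in the pupal wing. The members were the peaks that overlapped the dm6 span of each gene extended by 5 kb on both sides. These were 71 of the 14461 peaks of replicate 1 and 123 of the 26420 peaks of replicate 2. The genes were picked from these same peak lists as long loci with many peaks, so their numbers, heights and positions of peaks are given as a description and carry no test.

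H3K27ac is a histone acetylation that marks active promoters and enhancers. It was mapped by CUT&RUN, in which an antibody directs a nuclease to the marked chromatin and the released fragments are sequenced. The material was the wings of male Drosophila melanogaster of the transgenic line D2 at 67% of pupal development, raised at 25 °C, with 35 to 45 wings pooled per replicate and a light crosslink of 1 min. Both biological replicates had this same genotype, sex, stage and treatment, and they formed 1 group, with no other stage, genotype or control library among the samples. The submitters describe this stage as one at which the activity they call spot activity is repressed in this species. The depth of each library in reads is unknown. Solving the listed peak values for the genome-wide background gave 27.1 fragments, against 13.8 in replicate 1, a ratio of 1.96. At that background, the lowest listed fold enrichment (the pileup at the summit plus 1, over the background plus 1) was 1.96 in replicate 1 and 1.67 in replicate 2, so the list of replicate 2 reached to lower fold. Wings contain epithelium, veins, sensory neurons, glia, trachea and hemocytes, and the lists cannot tell how many cells carry a peak from how strongly each cell carries it.

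The 3 proteins belong to different families. Muscleblind, the product of mbl, binds RNA through CCCH zinc fingers, acts in the development of muscle and photoreceptors, and its gene is known for an abundant circular RNA. Hephaestus is the fly polypyrimidine tract-binding protein, which binds pyrimidine-rich RNA through RNA recognition motifs, and heph is known in the wing for restraining Notch signalling. Smooth, the product of sm, is an RNA-recognition-motif protein related to mammalian hnRNP L, and sm is known for a role in the axons of chemosensory neurons. Each gene makes many transcripts. The RefSeq gene table lists 19 transcripts for mbl, 25 for heph and 21 for sm, without their start sites or strand, so a peak inside a gene could not be assigned to a promoter or an intron.

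The locus of mbl (Dmel_CG33197) spans 162.8 kb on 2R, from 17216549 to 17379376. Its 5 kb extensions on both sides bring it to 172.8 kb. Here replicate 1 listed 14 peaks and replicate 2 listed 38. The locus of heph (Dmel_CG31000) spans 168.5 kb on 3R, from 31846987 to 32015520, and held 29 and 53 peaks. The locus of sm (Dmel_CG9218) spans 113.6 kb on 2R, from 19517864 to 19631508, and held 28 and 32 peaks. A peak of replicate 1 was called shared where it overlapped a peak of replicate 2 by at least 1 bp. There were 13 shared peaks at mbl, 23 at heph and 23 at sm. Per 10 kb of locus, this came to 0.75 at mbl, 1.29 at heph and 1.86 at sm.

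**Figure D1:**
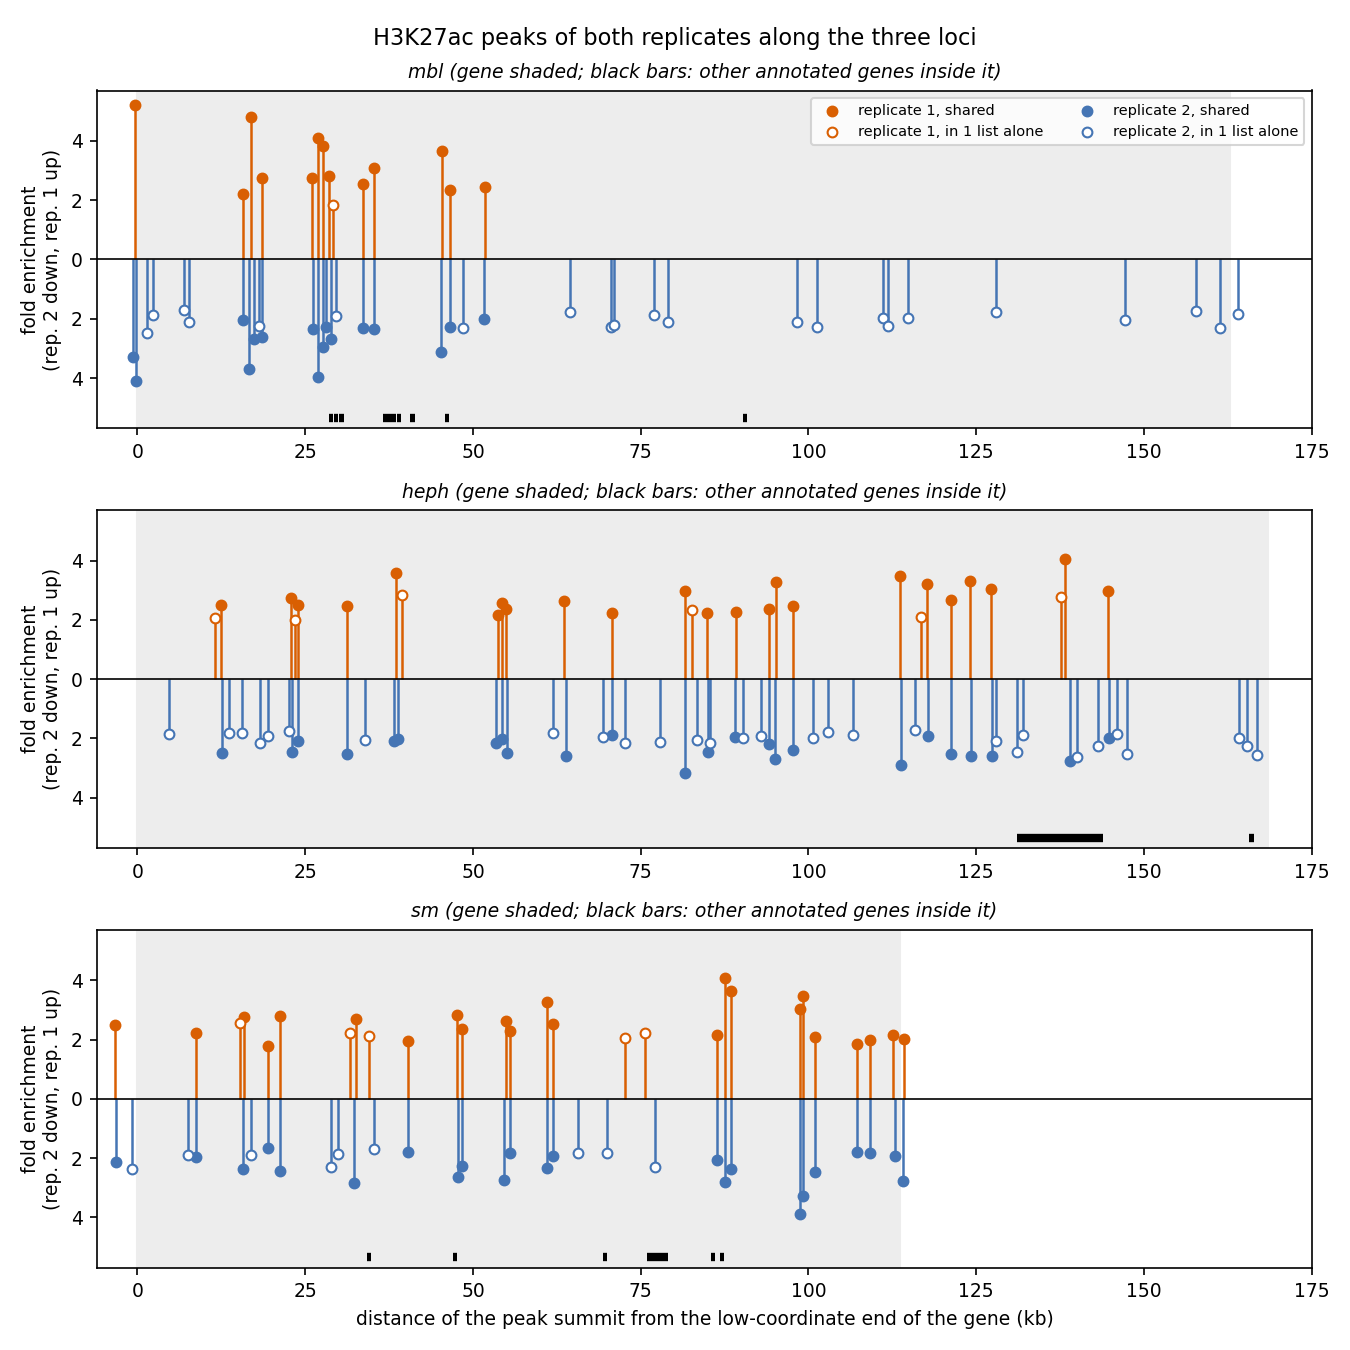
Fold enrichment of every peak in the 3 loci (replicate 1 upward, replicate 2 downward) against the distance of its summit from the low-coordinate end of the gene in kb. Filled points are shared peaks, open points were found in 1 list alone, the shaded block is the gene, and black bars are other annotated genes inside it. The 13 shared peaks of mbl lie at its low-coordinate end, while the 23 of heph and the 23 of sm spread along the gene.

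The peaks of mbl were concentrated at its low-coordinate end. The shared peak farthest along the gene had its summit 51.8 kb from that end, at 31.8% of the gene length, and 0 shared summits lay in the remaining 111.0 kb. Of 3 equal parts of the gene, the first, counted with its flank, held all 13 shared summits. It also held all 14 peaks of replicate 1 and 23 of the 38 peaks of replicate 2. The first part held 8 of 23 shared summits at heph and 6 of 23 at sm. Among the 307 protein-coding genes of at least 50 kb, 72 held 10 or more shared summits. The longest stretch without a shared summit had a median of 21.2% of the gene length over these 72 genes. It was 68.2% for mbl, rank 1 of the 72, and mbl was the only one of them with all its shared summits in 1 of the 3 parts. Of the genes most like mbl in length, shared peaks and covered length, SKIP had a stretch of 53.5%, sick 41.1% and pum 33.1%. The stretch was 14.2% of the gene for heph, rank 65, and 21.4% for sm, rank 34.

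The long part of mbl without shared peaks was not empty in replicate 2. That list held 15 peaks beyond the last shared one, of which 14 lay inside the gene. Their fold enrichment ran from 1.74 to 2.31, with a median of 2.03. Their pileups were 48 to 64 fragments, and 14 of the 15 were called against the genome-wide background. Against 1.96, the lowest fold that replicate 1 listed at its own genome-wide background, 5 of them were lower, 2 were equal at 2 decimals and 8 were higher. With the list of replicate 2 alone, the longest stretch of mbl without a summit was 11.9% of the gene, rank 106 of 138 genes, so the length of the stretch rested on what replicate 1 listed. With a -log10 q of at least 5 in both lists, all 13 shared summits were again in the first part.

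**Figure D2:**
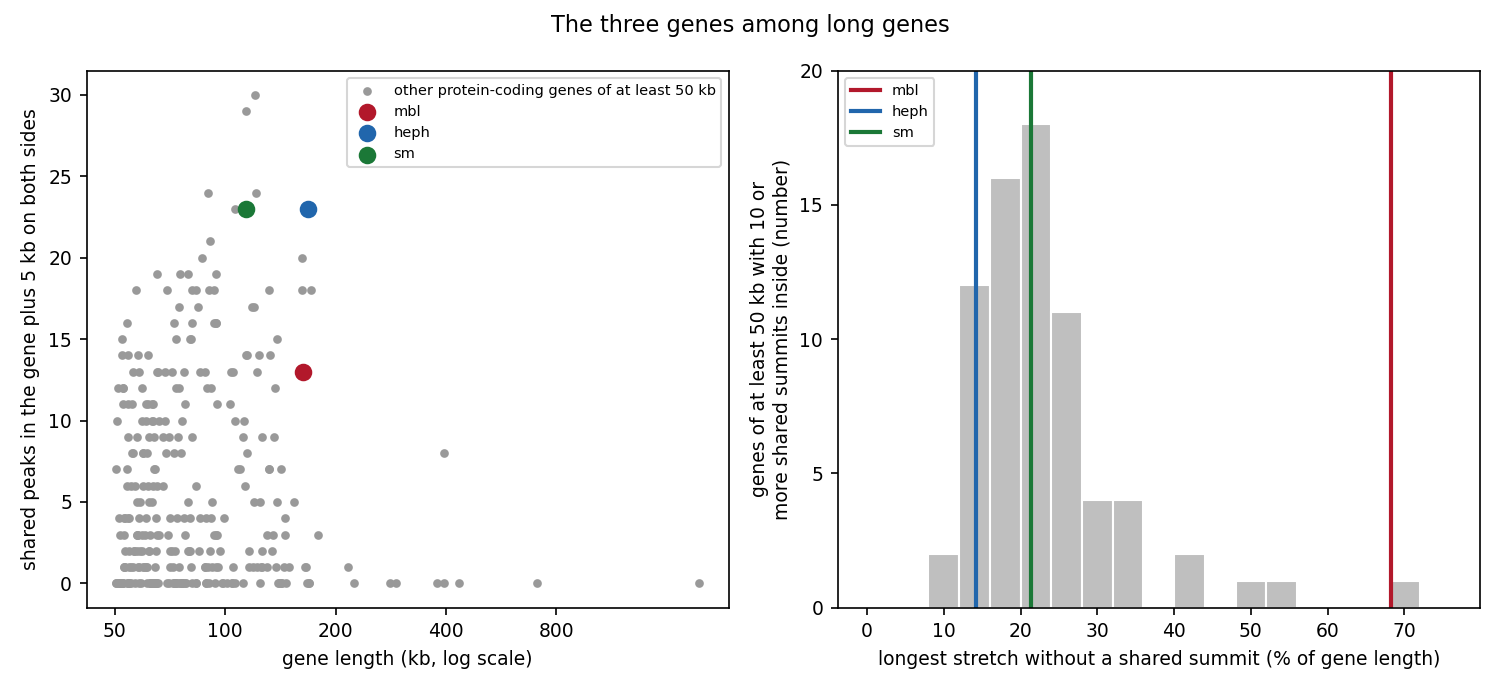
Left, shared peaks (number, gene plus 5 kb on both sides) against gene length in kb on a log axis for the 307 protein-coding genes of at least 50 kb. Right, the longest stretch without a shared summit as a percentage of gene length for the 72 of them with at least 10 shared summits inside; the coloured lines mark mbl at 68.2%, sm at 21.4% and heph at 14.2%.

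The highest shared peak of any of the 3 loci stood at the low-coordinate end of mbl, at 17215756 to 17216621 in replicate 1 and 17216175 to 17216665 in replicate 2. Its fold enrichment was 5.22 and 4.09, at percentiles 99.7 and 99.6 of the lists. The pileups were 117 fragments (95% Poisson interval 96.8 to 140) and 144 fragments (121 to 170). Its summits lay 13 bp apart. The nearest other gene inside mbl, lncRNA:CR46235, lay 28768 bp from the summit of replicate 1. The opposite end of mbl had no peak within 500 bp in either list.

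Further along mbl, the shared peaks formed groups. Between 15 and 20 kb from the low-coordinate end lay 3 peaks of replicate 1 and 5 of replicate 2. They included the widest peak of replicate 1 in the 3 loci, 1255 bp at 17232886 to 17234140. Its fold enrichment was 4.80, and its highest partner in replicate 2 had 3.71. Between 25 and 30 kb lay 5 and 6 peaks, the highest at 17243256 to 17243694, with a fold enrichment of 4.09 and 3.96. The neighbouring peak at 17243942 to 17244863 had 3.84 and 2.97. A last high peak lay at 17261692 to 17262489, with 3.66 and 3.11. Its summit was 371 bp from an end of the non-coding gene lncRNA:CR45997, which lies inside mbl.

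Several small genes lie inside mbl, and 4 of them had 0 peaks in both lists. Of the 8 other annotated genes, lncRNA:CR46235 and lncRNA:CR45997 each had 2 shared peaks in the gene or within 500 bp, and the protein-coding CG18469 had 1, which it shared with lncRNA:CR46235. Those without a peak were CG43272, CG43108, lncRNA:CR43660 and lncRNA:CR43661, and CG12699 had 1 in replicate 2 alone, with a fold enrichment of 1.91. Of the 13 shared summits of mbl, 3 lay within 500 bp of the end of another gene.

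The peaks of heph lay in the interior of the gene. All 23 shared summits were more than 500 bp inside it, the nearest of them 12499 bp from the low-coordinate end and 23957 bp from the other end. Neither end had a peak within 500 bp in either list. Each list had a peak within 500 bp of an end, though not always the same end, at 27.7% of protein-coding genes of at least 50 kb. Over all protein-coding genes the share was 39.3%. At mbl and at sm both lists marked the same end, and heph had no such peak. Of the 72 long genes with 10 or more shared summits, 33, heph among them, lacked such a peak in at least 1 list.

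Ranked by the mean percentile of fold over both lists, the first shared peak of heph, at 31985102 to 31985729, reached 4.05 in replicate 1 and 2.77 in replicate 2. In replicate 2 the peaks of ranks 2 and 3 were higher by fold. By pileup the first stood at 59 and 77 fragments, below those of ranks 2 to 4 in both lists. These had 75 and 95, 65 and 118, and 106 and 118 fragments. The summits of the first-ranked peak lay 634 bp apart, the largest distance in the 3 loci. The lists thus placed its maximum at different points of the same region. This peak lies inside CG2003, a protein-coding gene nested in heph, 5690 bp from an end of CG2003. The next peaks by rank lay at 31960417 to 31960927 (3.48 and 2.90), at 31928298 to 31928665 (2.98 and 3.15) and at 31941684 to 31942314 (3.29 and 2.68). That of rank 5 lay at 31970877 to 31971288, with a fold enrichment of 3.30 and 2.60. The widest peak of heph was that at 31960274 to 31961279 in replicate 2, 1006 bp across. The gene RhoGAP100F ends next to the low-coordinate end of heph, and 0 peaks lay in the part of it within the locus or within 500 bp of its end.

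Fold enrichment and pileup gave different pictures of heph. A stretch 80 to 100 kb from the low-coordinate end, noticed in the data, held 7 peaks of replicate 1 and 10 of replicate 2, of which 6 and 6 were shared. Its local background, the level against which the caller set each peak, was 21.1 to 33.1 fragments in replicate 1 and 36.2 to 44.4 in replicate 2. Between 50 and 80 kb the local background was 13.8 in replicate 1, the genome-wide value, and 27.1 to 32.8 in replicate 2. The pileups between 80 and 100 kb were 52 to 106 and 75 to 118 fragments. Between 50 and 80 kb they were 31 to 38 and 53 to 78, so the ranges did not overlap in replicate 1 and overlapped in replicate 2. Other stretches of heph reached the higher range in replicate 1, with 30 to 52 fragments from 0 to 50 kb and 44 to 75 from 110 to 130 kb. A peak called against a higher background needs a higher pileup, so this contrast goes with the background. The fold enrichments at 80 to 100 kb and at 50 to 80 kb overlapped, at 2.22 to 3.29 and 2.16 to 2.63 in replicate 1. The peak at 31936062 to 31936269 stood at percentile 76.0 of pileup and at percentile 34.8 of fold in replicate 1.

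**Figure D3:**
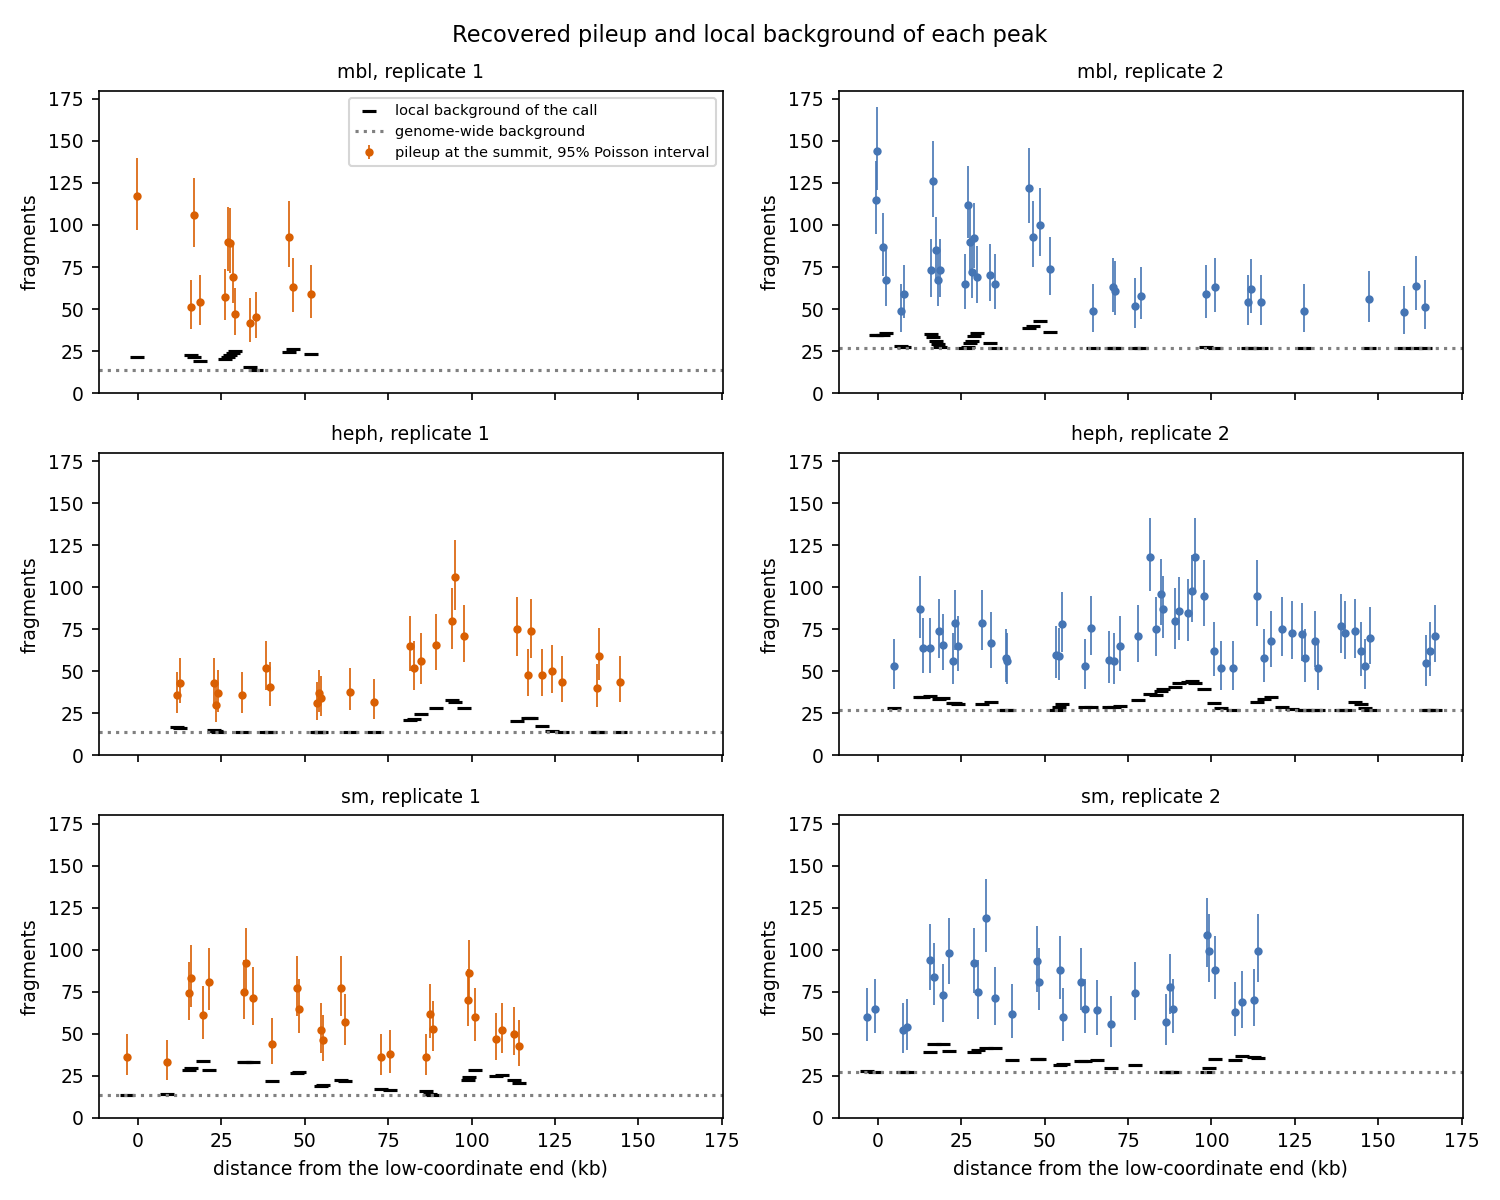
Recovered pileup at each summit in fragments (points, with the exact 95% Poisson interval of the count) and the local background of the same call (black dashes), against the distance from the low-coordinate end in kb. The dotted line is the genome-wide background of each list, 13.8 and 27.1 fragments; the local background rises 80 to 100 kb into heph and 14 to 36 kb into sm in both replicates.

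The peaks of sm ran from one end of the locus to the other. The first part of the gene with its flank held 6 shared summits, the middle part 7 and the last 10. The last shared summit lay 554 bp outside the high-coordinate end, and both lists had a peak within 500 bp of that end. The low-coordinate end had none, and the nearest shared summit lay 3279 bp outside it, at 19514421 to 19514639, with a fold enrichment of 2.50 and 2.12. The 4 peaks of sm with the highest rank by fold stood 87.6 to 99.2 kb along the gene. By pileup the highest lay elsewhere, 32.5 kb along, with 92 and 119 fragments.

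By fold, the first by rank was the peak at 19616964 to 19617328, with a fold enrichment of 3.48 and 3.29 and summits at the same base. Its neighbour at 19616430 to 19616733 had 3.03 in replicate 1 and 3.88 in replicate 2, the highest value of sm in that list. The widest peak of sm, at 19604737 to 19605542 (806 bp), had 4.08 and 2.81, and its summit lay 130 bp from an end of lncRNA:CR44474. The peak at 19606090 to 19606466 had 3.64 and 2.35. The peak of rank 5 lay at 19578324 to 19579036, with 3.28 and 2.33, and its summits too fell on the same base. Inside sm, the tRNA gene tRNA:Glu-TTC-1-3 had 1 shared peak within 500 bp, whose fold enrichment was 2.82 and 2.64. The nested protein-coding genes CG43111, CG42878 and TTLL6A had 0 shared peaks.

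A high local background was also found 14 to 36 kb into sm, at 28.4 to 33.9 fragments in replicate 1 and 39.3 to 43.8 in replicate 2. The shared peak at 19537190 to 19537368 lies there. It was among the lowest of both lists by fold, at 1.77 and 1.65 (percentiles 1.33 and 2.06), while its pileups of 61 and 73 fragments stood at percentiles 68.4 and 49.7. Of the peaks of replicate 1, the local background was at least 1.5 times the genome-wide value at 10 of 14 in mbl, 10 of 29 in heph and 19 of 28 in sm, against 44.9% of the whole list. In replicate 2 this held for 1 of 38, 5 of 53 and 4 of 32, against 21.1% of that list. Fold enrichment sets the pileup against this background, so at equal pileup a peak in such a stretch has the lower fold. The source of the raised background was not tested.

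The replicates shared most peaks of replicate 1 in each locus. The overlap was 13 of 14 at mbl (92.9%, exact Clopper-Pearson 95% interval 66.1 to 99.8%), 23 of 29 at heph (79.3%, 60.3 to 92.0%) and 23 of 28 at sm (82.1%, 63.1 to 93.9%). The whole list of replicate 1 shared 79.2%. Of the replicate 2 peaks, 16 of 38 overlapped a replicate 1 peak at mbl (42.1%, 26.3 to 59.2%), 24 of 53 at heph (45.3%, 31.6 to 59.6%) and 23 of 32 at sm (71.9%, 53.3 to 86.3%). The whole list of replicate 2 shared 44.7%. Neighbouring peaks are not independent, so these intervals cover counting error only. The loci were picked from these same lists, so the intervals are not used to test a locus against the whole list.

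Peaks that replicate 2 alone listed had lower medians than the shared ones. The same contrast over the whole list is not given here, so it is not read as particular to these loci. At mbl, 22 peaks were listed by replicate 2 alone, with a median fold enrichment of 2.06, against 2.63 for the replicate 2 peaks that were shared. At heph the 29 such peaks had a median of 1.98 against 2.47, and at sm the 9 had 1.88 against 2.33. The highest of them lay at 17217758 to 17218064 in mbl (2.47), at 31986838 to 31987061 in heph (2.63, inside CG2003) and at 19516968 to 19517207 in sm (2.35). Replicate 1 alone listed 1 peak at mbl, with a fold enrichment of 1.85, 6 at heph, the highest at 31886327 to 31886525 (2.83), and 5 at sm, the highest at 19532904 to 19533219 (2.55).

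The heights of the shared peaks followed each other between replicates most closely at mbl. The Spearman correlation of fold enrichment was 0.95 over the 13 peaks of mbl, 0.48 over the 23 of heph and 0.70 over the 23 of sm, against 0.51 over 11423 shared peaks on the chromosome arms. These points share their libraries and are neighbours on the chromosome, so the values are descriptive. Fold enrichment was higher in replicate 1 at 13 of 13 shared peaks of mbl, 18 of 23 of heph and 18 of 23 of sm. Over all shared peaks on the arms this held for 69.4%, and the median fold of the whole list was 2.43 in replicate 1 and 2.07 in replicate 2. An exception was the peak at 19631946 to 19632091, next to the high-coordinate end of sm, with 2.02 in replicate 1 and 2.76 in replicate 2. Its pileups were 43 fragments (31.1 to 57.9) and 99 fragments (80.5 to 121). Over the shared peaks, the median ratio of the replicate 2 pileup to the replicate 1 pileup was 1.31 at mbl, 1.59 at heph and 1.30 at sm, against 1.57 over the arms and 1.96 for the backgrounds. Summits lay a median of 56 bp apart at mbl, 104 bp at heph and 29 bp at sm, against 64 bp over the arms.

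**Figure D4:**
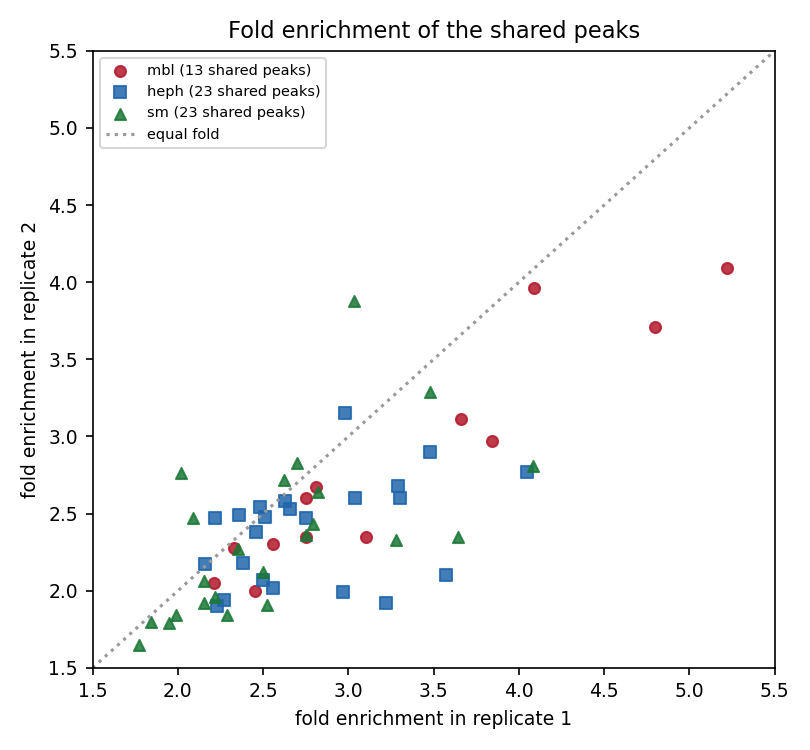
Fold enrichment of the 59 shared peaks of mbl (circles), heph (squares) and sm (triangles) in replicate 1 (horizontal axis) and in the highest overlapping peak of replicate 2 (vertical axis). The dotted line marks equal values; all 13 mbl points lie below it.

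By length covered in both lists, sm had 6327 bp, heph 6000 bp and mbl 5609 bp. These were ranks 4, 9 and 15 of 13922 protein-coding genes, whose median was 470 bp. The order of the 3 changed with stricter lists. With a -log10 q of at least 5, mbl had 5609 bp, sm 4680 bp and heph 4420 bp. With the 7230 top peaks of each list, mbl had 4154 bp, sm 4052 bp and heph 2932 bp. At least 10 shared peaks, which all 3 loci had, were found at 1.11% of all protein-coding genes and at 28.7% of those of at least 50 kb; the members were chosen for this and nothing is read from it. The median length of all protein-coding genes was 2.16 kb, so most of such a locus was the 5 kb flanks, unlike at the members. Per 10 kb, the median over all protein-coding genes was 1.25 shared peaks. The density of heph, 1.29, stood near it, that of sm, 1.86, above it and that of mbl, 0.75, below it. Over genes of at least 50 kb the median was 0.41, and sm held rank 27, heph rank 67 and mbl rank 116 of 307. All 3 loci thus ranked higher by covered length than by peaks per 10 kb.

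The genes most like the members in length, shared peaks and covered length were found by a distance over the log2 values of these 3 measures. For heph they were SKIP (162.3 kb, 20 shared peaks, distance 0.15), pum (171.3 kb, 18 shared peaks, 0.23) and sick (162.1 kb, 18 shared peaks, 0.23). For sm they were klar (106.5 kb, 23 shared peaks, 0.14), Svil (121.6 kb, 24 shared peaks, 0.15) and CG46467 (114.2 kb, 29 shared peaks, 0.22). For mbl the nearest were sick (distance 0.28), pum (0.31) and SKIP (0.38), each with more shared peaks than mbl. The gene pum encodes the translational repressor Pumilio, also an RNA-binding protein.

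The edges of the extended loci decided which peaks counted. The outermost peak inside lay 1557 bp from the edge at the low side of sm in replicate 1, with a fold enrichment of 2.50, and the nearest outside it lay 3494 bp beyond the edge (2.23). In replicate 2, peaks lay 281 bp outside the low edge of sm (1.87) and 314 bp outside that of heph (2.28), and 1715 bp outside the high edge of heph (2.63). At mbl the nearest peak outside lay 4958 bp from the high edge in replicate 2 (1.98).

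A list of 57 genes that encode splicing regulators, the members included, gives the setting of these loci. At least 1 shared peak in the gene or within 5 kb was found at 47 of 57, against 74.6% of all protein-coding genes. The median was 3 shared peaks and 859 bp covered in both lists, against 2 peaks and 470 bp over all protein-coding genes. The listed genes were longer, with a median of 5.94 kb against 2.16 kb. Per 10 kb, the medians were 1.34 and 1.25 shared peaks. Without the members, 44 of 54 had a shared peak, and the medians were 3 shared peaks and 840 bp. Each list had a peak no more than 500 bp from a gene end, not always the same end, at 30 of 57, against 39.3%. At least 10 shared peaks were found at 7 genes of the list, namely the members, which were chosen for this, and shep, mub, Doa and Rbfox1. Without the members it was 4 of 54, against 1.11% of all protein-coding genes and 28.7% of those of at least 50 kb. Of the 54, 9 were that long, and Doa, at 34.7 kb, was not among them. The other 6 of the 7 genes were 87.9 to 168.5 kb long.

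After the members, the longest covered length in the list was found at shep, which encodes a neuronal RNA-binding protein (13 shared peaks, 4172 bp), and at mub, a poly(C)-binding protein gene (13 shared peaks, 3476 bp). Next came Syp, the gene of the hnRNP protein Syncrip (7 shared peaks, 3204 bp). Doa, the gene of a kinase that phosphorylates SR splicing factors, had 10 shared peaks and 3183 bp, and ps, the fly Nova gene, had 9 and 2795 bp. Peaks near these genes can belong to neighbours, as at qkr58E-1, qkr58E-2 and qkr58E-3, which lie side by side and share peaks of the same heights.

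Long genes of the list did not all carry many peaks. The CELF family gene bru3, at 281.5 kb the longest of the list, had 0 shared peaks, with 0 peaks in replicate 1 and 5 in replicate 2, the highest at 3.38. Its relative bru1 (138.4 kb) had 5 shared peaks and the Musashi relative Rbp6 (179.4 kb) had 3. Without a shared peak were 10 genes of the list, among them bru3, elav, fne, Hrb27C, nonA, snf and Srpk79D. Of the 7 genes of the list on X, 1 had a shared peak, the sex-determination switch gene Sxl, against 45.9% of protein-coding genes on X. The gene nonA had 4 peaks in replicate 1 and 0 in replicate 2. On X the lists held 1334 and 1446 peaks, while on 3R they held 3694 and 7042, and the part of this in the low counts on X was not tested.

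**Figure D5:**
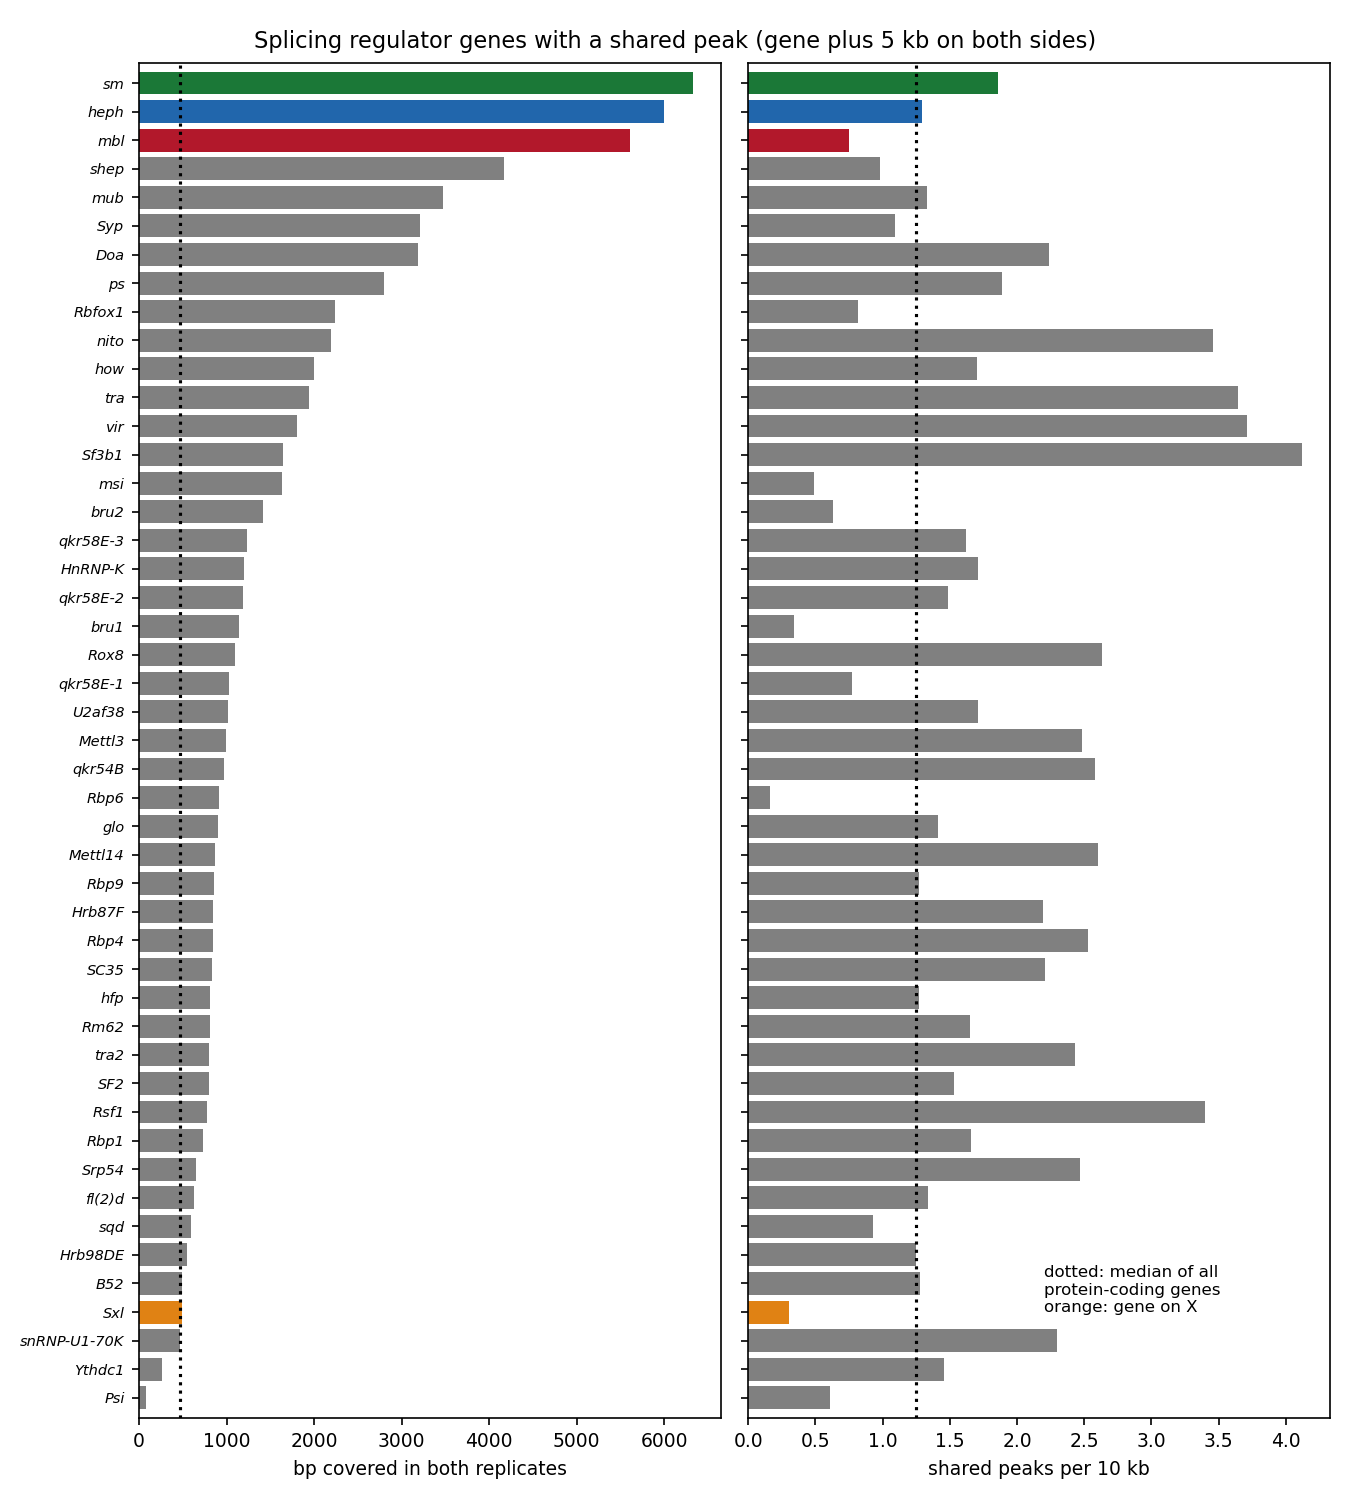
The 47 splicing regulator genes with a shared peak, of 57 in the list, ordered by the length covered in both replicates in bp (left), with shared peaks per 10 kb (right), both for the gene plus 5 kb on both sides. Members are coloured, Sxl on X is orange, and dotted lines mark the medians over all protein-coding genes, 470 bp and 1.25 per 10 kb.

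Markers of the tissue were checked by the same rule. A shared peak was found at 5 of 5 wing genes (vg, nub, ap, sd and rn, with 3 to 10 shared peaks), at 4 of 7 muscle, 4 of 5 neuron, 2 of 2 glia, 1 of 3 hemocyte, 2 of 2 trachea and 3 of 3 retina genes, against 74.6% of all protein-coding genes. Of the muscle genes, Mef2 had 10 shared peaks, sls 8, Act88F 2 and Tm2 1, while Mhc, up and wupA had 0. Of the neuron genes elav had 0, with 1 peak in replicate 1 and 3 in replicate 2. The genes up, wupA and elav lie on X, where 45.9% of protein-coding genes had a shared peak. The markers sd and moody, also on X, had 6 and 1 shared peaks. Since mbl acts in muscle and neurons as well, the part of such cells in its peaks was not tested.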

How the data were processed

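CUT&RUN for H3K27ac was done on 2 biological replicates of male pupal wings. Per the submitters' processing notes, the authors used Bowtie2, MACS2 and the build dm6; the sources used here give no version, setting, treatment of duplicates or control. Peaks were called per replicate. The deposited fold is a ratio that the values match as (pileup + 1) over (local background + 1), the -log10 p and -log10 q deposited beside it come from the caller, and the authors' score column restates the -log10 q in whole numbers; the smallest -log10 q was 2.01 and 2.04. All fold values here are the authors'. Positions were turned into 1-based coordinates.

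Whole-number pileups and Poisson backgrounds were solved from the fold and -log10 p within 0.001 units, for all but 1 peak of each list. Sequencing depth in reads is unknown here, and since no molecular identifiers are described, intervals cover counting error only. Gene spans came from the RefSeq table of Release 6, with 13922 protein-coding genes on X, 2L, 2R, 3L, 3R and 4. Of the 57 listed symbols, 2 matched through a synonym. Overlaps were computed with numpy 2.4.6 and pandas 2.3.3, intervals with scipy 1.17.1, and the code was tested on simulated data.

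The members and lists were chosen with earlier results of these data known. Named were the members, the 5 shared peaks of each with the highest mean percentile, the widest, the highest in 1 list alone, those at the edges, the genes inside the members, 8 list genes with the most and up to 8 with no shared peak, and the 3 most similar genes. Values outside this rule, such as bru1, Rbp6, pum's role and the stretches of heph and sm, were chosen after their values were seen. A gene that the rule names is not reported here. Alternatives are given in the closing section.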

Additional observations from a re-analysis of the deposited data

How the results depend on the processing

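No paired analysis was possible because both replicates form 1 group. The count of splicing regulator genes with a shared peak was 35 to 53 under the alternatives run, against 47; taking all 17684 annotated genes as background changed its reference from 74.6 to 71.0%. With a -log10 q of at least 5, shared peaks numbered 15 at heph and 12 at sm, covered length at sm was 4680 bp, density 0.97 per 10 kb there and 0.84 at heph, and the first part of heph held 20% of shared summits. With the 7230 top peaks of each list, there were 8, 10 and 9 shared peaks at mbl, heph and sm, 4052 bp and 0.73 per 10 kb at sm, 2932 bp and 0.56 per 10 kb at heph, 0.46 per 10 kb at mbl, and 10.0% and 33.3% of summits in the first part of heph and sm. A reciprocal overlap of 50% gave 5637 bp and 1.54 per 10 kb at sm. Flanks of 0, 1 and 10 kb gave 5962, 6108 and 6521 bp there; the replicates differed by so little at sm that small shifts exceeded their spread. With 1 replicate left out, peaks were 14 to 38 at mbl, 29 to 53 at heph and 28 to 32 at sm, covered lengths 6591 to 11878, 8985 to 15487 and 9485 to 9677 bp, densities 0.81 to 2.2, 1.62 to 2.97 and 2.26 to 2.59 per 10 kb, and the first part held 60.5 to 100% of summits at mbl, 30.2 to 37.9% at heph and 32.1 to 37.5% at sm. The settings for position were chosen after seeing the data. Covered length by summit placement was not run. A region without a peak in replicate 1 may carry signal below its threshold, and the part of depth in this was not tested. The cause of these shifts was not tested beyond the smaller lists.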
